A study of Mus musculus with 16 samples.

Results

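Closely paired TSS windows are stretches around 2 transcription start sites (TSSs) that lie almost on top of each other. They were the distinct autosomal windows whose start lay within 1000 bp of the start of exactly 1 other window on the same chromosome. The rule used positions and no measured value. It found 4820 members among 35043 autosomal windows (13.8%) and among 38053 distinct windows in all. Of the members, 4746 formed 2373 mutual pairs, and the partner of the other 74 had further neighbours.

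Mouse embryonic stem cells (mESCs) in L2i medium were profiled by ATAC-seq, which reads where a transposase can enter open chromatin. All 8 groups carried the genotype FOXD3-iKO. Tamoxifen (4HT) for 24 h induced the loss of FOXD3, a forkhead factor known from pluripotency and the neural crest, and EtOH in the sample names marked the other arm. Cells were sorted on DNA content (DAPI) into G1, ES, LS and G2 fractions of each arm, in the labels' names. Each of the 4 fractions thus existed as a 4HT group and an EtOH group, with 2 libraries per group and 16 in all. The labels give neither the recombinase driver nor the number of clones.

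Genes whose TSSs face away from each other over a short stretch share 1 promoter region, often called a bidirectional promoter. Such promoters are usually rich in CpG, poor in TATA boxes, and frequent among genes for DNA repair, replication and mitochondrial function. NFY, ETS-family factors, NRF1, YY1 and SP factors are textbook binders of housekeeping promoters of this kind. Histone H2A and H2B genes are a long-known example of divergent neighbours.

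The deposited signal behaves as depth-scaled read coverage whose mean leaves out bases with no read. There was 1 column per group and no replicate column, so all values are pooled and carry no SD. The smallest value of a column was taken as the worth of 1 read, and it implied 6781000 to 11078000 reads in the 4HT columns and 8170000 to 11176000 in the EtOH columns. The shallowest column was 4HT in G1, where 1 read was worth 0.147, against 0.0895 to 0.122 in the EtOH columns. Below, the level of a window is its mean over 8 columns after each signal was divided by what 1 read was worth in that column. A window cannot fall below its 1-read value, so weak differences follow depth and are understated. As a check of the cell label, the windows of the pluripotency genes Zfp42, Klf2, Tfcp2l1, Sox2, Nanog and Esrrb had levels of 2.58, 2.73, 1.81, 1.58, 1.43 and 1.25, the last of them below the median of all autosomal windows. The Foxd3 window had signals of 0.243, 0.158, 0.141 and 0.169 in 4HT and of 0.153, 0.195, 0.155 and 0.110 in EtOH (G1, ES, LS, G2), which does not check the depletion. None of these 7 genes is a member. Fewer open cells and less open chromatin per cell cannot be told apart in pooled cells.

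Promoter sequences are shown for members of 5 divergent pairs and 1 further member on which the results below turn. They come from RefSeq (GRCm38.p6), run 5′ to 3′ on the strand of the named gene, and hold 250 bases before the TSS and 50 from it on. Capitals mark the 7 motifs searched on both strands (NFY, SP, ETS, TATA, NRF1 core, YY1 and CRE), whose letters are spelled out with the motif counts. Srgap2 (chr1:131527312-131527611, minus strand) and Fam72a (chr1:131527653-131527952, plus strand) form the divergent pair of protein-coding genes with the highest level.
Srgap2: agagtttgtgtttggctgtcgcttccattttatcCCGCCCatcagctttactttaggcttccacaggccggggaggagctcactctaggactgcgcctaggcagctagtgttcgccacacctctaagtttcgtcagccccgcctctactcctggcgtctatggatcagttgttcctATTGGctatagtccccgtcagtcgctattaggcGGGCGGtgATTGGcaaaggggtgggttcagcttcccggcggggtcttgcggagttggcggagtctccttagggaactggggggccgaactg
Fam72a: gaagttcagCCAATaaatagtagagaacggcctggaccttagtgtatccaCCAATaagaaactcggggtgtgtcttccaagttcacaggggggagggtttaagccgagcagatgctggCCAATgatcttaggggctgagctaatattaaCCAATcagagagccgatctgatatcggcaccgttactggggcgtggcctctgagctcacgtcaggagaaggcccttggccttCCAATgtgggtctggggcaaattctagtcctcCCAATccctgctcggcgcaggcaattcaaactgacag
Fam72a held 6 NFY pentamers and Srgap2 held 2, together with 2 SP matches. Kbtbd3 and Aasdhppt, 249 bp apart, are the next such pair, and both promoters held SP matches but no NFY pentamer. The promoters overlap, and their SP matches are the same 2 sites read on opposite strands. The Kbtbd3 promoter is chr9:4309493-4309792 on the plus strand. The TSS of Aasdhppt, on the other strand, is base 2 of the Kbtbd3 promoter.
Kbtbd3: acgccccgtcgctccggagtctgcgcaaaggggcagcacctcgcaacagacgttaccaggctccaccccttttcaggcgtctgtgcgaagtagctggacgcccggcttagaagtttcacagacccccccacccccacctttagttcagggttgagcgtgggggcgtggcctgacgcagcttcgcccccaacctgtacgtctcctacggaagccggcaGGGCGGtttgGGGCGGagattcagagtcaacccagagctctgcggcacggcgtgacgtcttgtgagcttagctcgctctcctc
Brca1 (partner Nbr1, whose TSS lies at base 99) and Atm (partner Npat) are classical head-to-head repair genes. Brca1 is shown from chr11:101551906-101552205 and Atm from chr9:53536622-53536921, both on the minus strand. Rad51c (chr11:87404905-87405204, minus strand; partner Tex14, TSS at base 140) had the smallest p of any named member for 4HT against EtOH in the direction of higher signal.
Brca1: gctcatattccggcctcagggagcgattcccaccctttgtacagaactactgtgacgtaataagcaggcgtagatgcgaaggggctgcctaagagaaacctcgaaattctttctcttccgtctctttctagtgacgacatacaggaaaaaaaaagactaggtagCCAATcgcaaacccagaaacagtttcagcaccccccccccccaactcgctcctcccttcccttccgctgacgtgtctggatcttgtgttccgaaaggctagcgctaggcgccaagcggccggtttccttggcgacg
Atm: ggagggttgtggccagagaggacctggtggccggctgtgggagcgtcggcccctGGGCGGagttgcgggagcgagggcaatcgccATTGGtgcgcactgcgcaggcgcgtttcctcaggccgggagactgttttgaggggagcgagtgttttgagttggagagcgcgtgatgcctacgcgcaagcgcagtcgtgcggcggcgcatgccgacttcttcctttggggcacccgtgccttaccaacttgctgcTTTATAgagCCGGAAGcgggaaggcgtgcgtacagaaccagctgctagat
Rad51c: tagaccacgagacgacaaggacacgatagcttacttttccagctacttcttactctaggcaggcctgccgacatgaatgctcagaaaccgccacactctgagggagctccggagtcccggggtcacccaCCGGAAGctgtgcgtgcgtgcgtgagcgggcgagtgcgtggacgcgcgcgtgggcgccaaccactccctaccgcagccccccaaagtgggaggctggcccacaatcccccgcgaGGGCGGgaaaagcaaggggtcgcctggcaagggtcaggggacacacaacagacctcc
Dph6 was the 1 annotated member called between fractions, and its promoter, chr2:114654915-114655214 on the minus strand, matched none of the 7 motifs.
Dph6: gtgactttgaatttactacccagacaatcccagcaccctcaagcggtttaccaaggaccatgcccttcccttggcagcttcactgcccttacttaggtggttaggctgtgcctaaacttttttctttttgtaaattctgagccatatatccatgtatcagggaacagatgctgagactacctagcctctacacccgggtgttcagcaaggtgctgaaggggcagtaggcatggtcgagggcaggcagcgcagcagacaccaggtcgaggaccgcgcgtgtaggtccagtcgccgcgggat

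The 2 windows of a pair covered nearly the same DNA. Starts of mutual pairs lay 1 to 1000 bp apart (median 255 bp), so partners shared at least 4000 and at the median 4745 of 5000 bp. Partner levels differed by 0.581% at the median, and by over 10% in 13 of 2339 pairs with both levels. Partners therefore share reads and are not independent measurements. Members made up between 10.8% of the autosomal windows on chromosome 6 and 16.7% on chromosome 11.

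Matched to RefSeq TSSs, the 5000 bp windows were centred slightly upstream of the TSS on the gene's own strand. Both windows of a pair could be tied to a TSS in 1193 pairs. Of these, 1040 (87.2%) held genes on opposite strands. In 792 pairs the genes were divergent, with the minus-strand TSS on the left and the plus-strand TSS on the right, a median of 127 bp apart. In 248 pairs the heads overlapped, so that each gene ran across the TSS of the other. A further 95 pairs were tandem, and 58 held 2 starts of 1 gene. Both genes were protein-coding in 533 divergent pairs, and 227 paired a protein-coding gene with a long noncoding RNA (lncRNA). In 927 pairs 1 window had no annotated TSS, and in 253 neither had.

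Paired windows were more accessible than single ones. Their median level was 1.52 (quartiles 1.31 and 1.85), against 1.27 for all autosomal windows and 1.24 for the 29674 with no other start within 1000 bp. A level of at least 2 was reached by 17.8% of members and by 6.50% of all autosomal windows. All 8 columns had a read in 98.7% of members and in 96.1% of autosomal windows. The gap was present within gene types: protein-coding members stood at 1.60 and single protein-coding windows at 1.32, lncRNA members at 1.45 and single lncRNA windows at 1.22. In each of the 8 columns protein-coding members had the higher median, by 0.204 to 0.379 read multiples. The mean gap was 0.277 in the 4HT columns and 0.289 in the EtOH columns. The 243 members whose partner start lay in the last 100 bp inside the limit had a median of 1.499, and the 280 windows whose nearest start lay in the first 100 bp beyond it had 1.38. No test was made of these levels, since windows are not replicates.

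The level differed between orientations, which also differed in their gene kinds. Divergent windows stood at a median of 1.63, overlapping heads at 1.55, tandem windows at 1.32 and pairs without an annotated TSS at 1.35. Of the 190 tandem windows, 94 lay in pairs with neither a protein-coding gene nor an lncRNA (median 1.21). Where both genes were protein-coding, overlapping heads stood at 1.64 (282 windows) and tandem windows at 1.65 (20 windows). The part of gene kind in this order was not tested. The highest median of any orientation and gene kind was that of divergent pairs of protein-coding genes, 1.72 over 1066 windows, against 1.503 for divergent pairs of a protein-coding gene and an lncRNA. Their excess over single protein-coding windows was 0.268 to 0.486 read multiples in the 8 columns. In each of these classes, except the 94 tandem windows of neither kind, the shallowest column, 4HT in G1, had the lowest median. The deepest columns, 4HT in LS and EtOH in G2, had the highest.

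**Figure D1:**
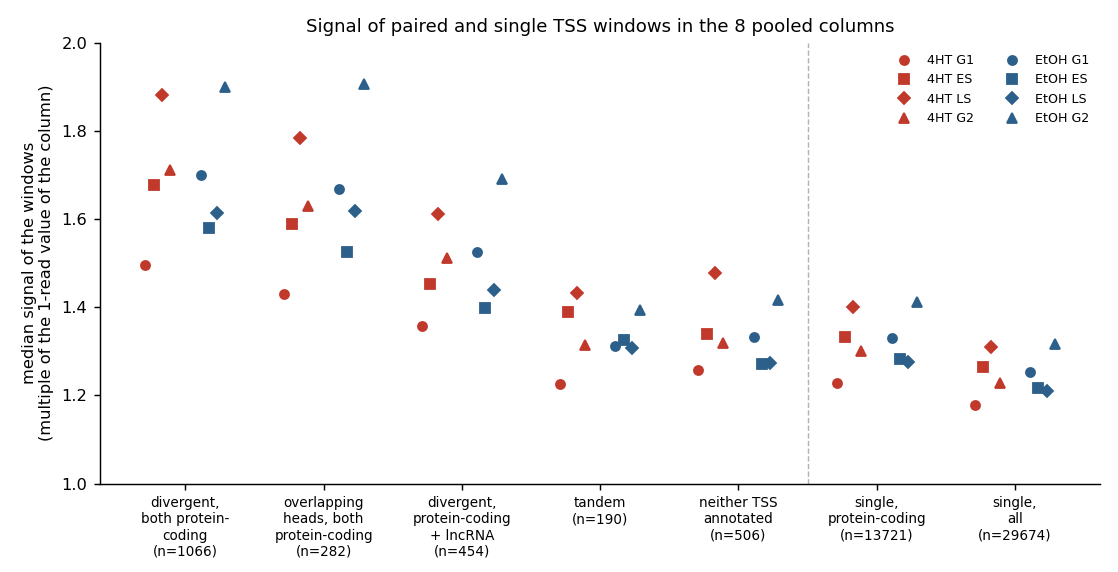
Median signal of 5 kinds of paired window and 2 kinds of single window, as a multiple of the 1-read value (vertical axis, starting at 1), with 1 point per pooled column (red 4HT, blue EtOH, shapes for fractions). Divergent protein-coding pairs lie above single protein-coding windows in all 8 columns, by 0.268 to 0.486.

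Within divergent protein-coding pairs the level differed with the distance between the TSSs. The median was 1.56 with TSSs under 100 bp apart, 1.80 from 100 bp, 1.98 from 200 bp and 1.87 from 400 bp on. The quartiles of neighbouring distance classes overlapped. The distance between window starts showed another order, 1.60, 1.56, 1.47 and 1.45 from under 100 bp to 600 bp or more. Window starts of opposite-strand genes are shifted by 300 bp against their TSSs, and the median start gap was 205 bp in divergent pairs, 580 bp in overlapping heads and 335 bp in tandem pairs; their part in this order was not tested.

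**Figure D2:**
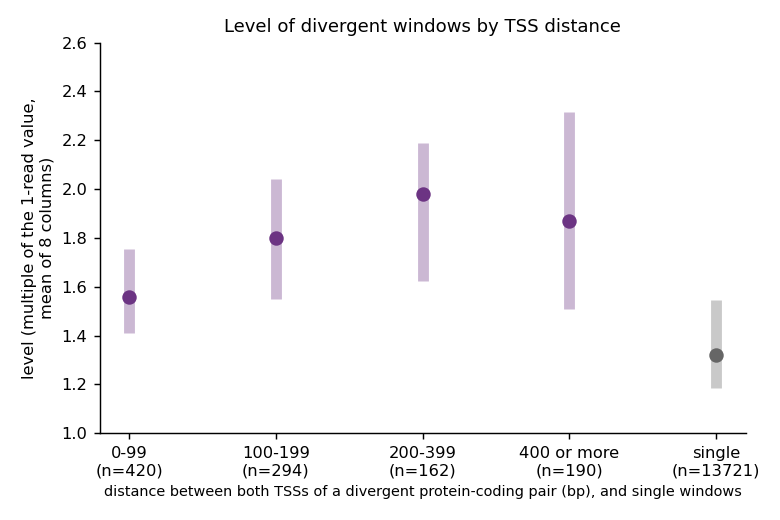
Median level (point) and quartiles (bar) of divergent protein-coding windows by the distance between both TSSs, with single protein-coding windows on the right; n counts windows. The medians are 1.56, 1.80, 1.98 and 1.87, against 1.32 for single windows.

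Accessible regions, the authors' second table, were found at most divergent pairs. At least 1 region lay in 96.8% of divergent pairs, 97.6% of overlapping heads and 57.9% of tandem pairs. Of the left windows of divergent protein-coding pairs 98.3% held a region, against 68.0% of single protein-coding windows. In 496 of 533 such pairs a region lay within 1000 bp of the TSS midpoint, and the strongest was centred 7 bp from that midpoint at the median (quartiles -101 and 113). Its centre lay between both TSSs in 194 of the 496 pairs (39.1%) and beyond one of them in the others. Seen from either gene, the median centre lay 80 or 82 bp upstream of the TSS. At 7080 single protein-coding TSSs the strongest region was centred 72.5 bp downstream at the median. Its median level was 2.57 at the pairs and 1.92 at the single TSSs.

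**Figure D3:**
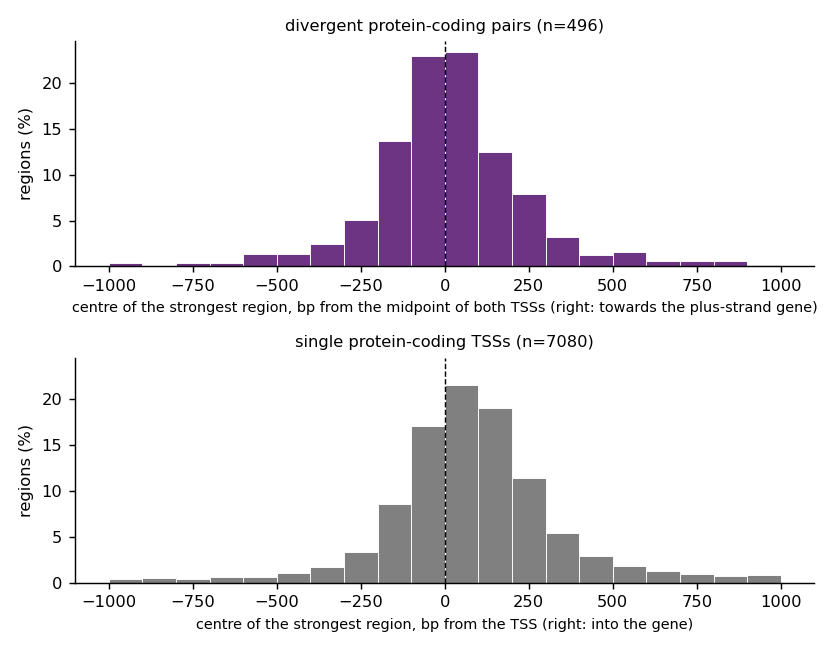
Position of the strongest accessible region, in bins of 100 bp, relative to the midpoint of both TSSs of 496 divergent protein-coding pairs (top) and relative to the TSS of 7080 single protein-coding genes (bottom), as a percentage of regions. The upper histogram has a signed median of 7 bp, near 0 because both sides of a pair are equivalent. Of its centres 46.6% lie within 100 bp of the midpoint. The lower histogram is shifted into the gene (median 72.5 bp).

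The 10 mutual pairs with the highest levels were not typical of the rest. The first, at chr2:22587298-22593183 inside Myo3a, had a level of 11.4, no annotated TSS and no accessible region. Its left window had signals of 1.63, 1.19, 1.22 and 1.11 in 4HT and of 0.854, 1.25, 1.26 and 1.21 in EtOH (G1, ES, LS, G2). The arms overlapped. Cdca2, a mitotic chromatin-bound regulator of protein phosphatase 1, followed with its unannotated partner at 6.00, over a stretch that also touches Kctd9. The next were Zbtb20, a zinc finger repressor, with 4932412D23Rik at 5.98, Agpat1, a phospholipid-synthesis acyltransferase, at 5.41, and Tomm40, the mitochondrial import pore, at 5.39. Srgap2, a GTPase-activating protein, and Fam72a, an antagonist of uracil glycosylase, stood at 5.26. Kbtbd3, a Kelch-family gene, and Aasdhppt, a phosphopantetheinyl transferase, stood at 4.93. Cnot3 (a CCR4-NOT deadenylase subunit), Mob3a and Rab40c, a small GTPase, had levels of 4.84, 4.65 and 4.62.

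Srgap2 had signals of 0.591, 0.411, 0.461 and 0.623 in 4HT and of 0.724, 0.481, 0.807 and 0.519 in EtOH. The arms overlapped, with EtOH in LS highest in signal and EtOH in G1 highest as a multiple of the 1-read value (7.21). Its strongest region, at chr1:131526782-131528355, had signals of 0.954, 0.713, 0.929 and 1.16 in 4HT and of 0.925, 0.806, 1.53 and 1.13 in EtOH, again with EtOH above 4HT in LS.

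The 3 pairs with the widest absolute gap between partner levels were the following. Gm23421, a small nuclear RNA gene, stood at 2.52 and its tandem partner Clic1, a chloride channel gene, at 1.39. In an unannotated pair over the pseudogene Ftl1-ps2 the partners stood at 1.90 and 2.64. The pair in Myo3a had 11.1 and 11.8, a gap of 0.658 that is small beside its level.

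Classical head-to-head pairs were accessible at a median level of 1.997. Of 20 pairs listed from textbook knowledge, 14 were found with both genes named, 4 with 1 gene named and 2 not among the members. Brca1, a recombination repair gene, with Nbr1, an autophagy receptor, stood at 2.50, and Atm, the damage-signalling kinase, with Npat, a histone gene coactivator, at 2.19. Brca1 had signals of 0.384, 0.241, 0.245 and 0.260 in 4HT and of 0.295, 0.224, 0.306 and 0.236 in EtOH. Atm had 0.428, 0.184, 0.260 and 0.205 in 4HT and 0.241, 0.228, 0.225 and 0.177 in EtOH. In both genes the arms overlapped, with 4HT in G1 highest in signal. As a multiple of the 1-read value Brca1 was highest in EtOH in G1 (2.94), with 2.601 in 4HT in G1. The replication gene Cdc45 with Ufd1 stood at 2.14, the purine synthesis genes Ppat and Paics at 2.10, and the mitochondrial chaperonins Hspd1 and Hspe1 at 2.06. The lowest was Tk1, thymidine kinase, with Afmid at 1.45. Type IV collagen genes Col4a1 and Col4a2, whose overlapping heads lie 21 bp apart, stood at 1.74.

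Pairing was unevenly spread over gene families. Members made up 15.8% of protein-coding windows, but 29 of 59 on a DNA repair list (49.2%), 13 of 26 RNA polymerase subunits (50%), 29 of 63 mitochondrial ribosomal proteins (46.0%) and 34 of 74 histones (45.9%). They made up 14 of 38 genes with Nduf symbols (36.8%), called the complex I list here. They made up 23 of 81 cytosolic ribosomal proteins (28.4%) and 9 of 44 proteasome genes (20.5%). Zfp zinc finger genes held 49 members of 302 (16.2%) and olfactory receptors 10 of 1009 (0.991%). Of Fanconi genes 1 of 8 was a member and of MCM and GINS symbols 4 of 12. The lists went by the start of the symbol, and the Nduf list was used as it stood. Lists so made held some genes of other kinds. Left without these, members were 22 of 74 cytosolic ribosomal proteins (Rps6kb1, a kinase, left out), 15.4% of Zfp genes (Zfp335os, Zfp652os and Zfp85os, antisense genes, left out), 8 of 43 proteasome genes (without Psme3ip1), 3 of 11 MCM and GINS genes (without Mcm3ap) and 97 of 561 miRNA genes (without host genes). Median levels of members and of single windows were 1.79 and 1.56 for repair, 1.55 and 1.34 for histones, 1.72 and 1.56 for complex I, and 1.70 and 1.61 for RNA polymerase subunits. They were closer for mitochondrial ribosomal proteins (1.55 and 1.505), cytosolic ribosomal proteins (1.62 and 1.57), proteasome genes (1.57 and 1.51), Zfp genes (1.54 and 1.47) and Fanconi genes (1.59 and 1.58). MiRNA genes were members in 98 of 568 windows (17.3%), with medians of 1.31 and 1.24. The olfactory receptor members stood at 1.13, near the floor, and single ones at 1.15. The MCM and GINS members stood at 1.91 and the single ones at 2.17.

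Histone H2A and H2B genes formed 10 divergent pairs with 164 to 249 bp between their TSSs. Pair levels ran from 1.22 for H2ac23 with H2bc23 to 1.96 for H2bc4 with H2ac6 (median 1.58). In the left windows of the 9 tested pairs the log2 difference was above 0 in 4 for 4HT against EtOH and in 5 for LS against G1. For LS against G1 it ran from -0.37 to 0.41, and the smallest adjusted p was 0.398 (limma, Benjamini-Hochberg). These genes are near copies of each other, so reads may be assigned to the wrong copy.

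Tandem pairs included 18 pairs of miRNA genes, whose levels lay between 1.06 and 1.41 (median 1.25), under the 1.52 of all members. In at least 7 of the 18 a mature sequence of one gene shared its seed (bases 2 to 8, in capitals) with one of the other. No mature sequence was at hand for Mir449b, Mir599, Mir875, Mir124a-1 and Mir3078, so their pairs could not be compared. The examples are clusters processed from shared primary transcripts, with levels of 1.16 for Mir181a-1 and Mir181b-1, 1.32 for Mir29b-2 and Mir29c, and 1.29 for Mir16-1 and Mir15a. The 3 pairs lie at chr1:137963806-137968989, chr1:195034391-195039897 and chr14:61629623-61634760, and the sequences are from RefSeq.
mmu-miR-181a-5p: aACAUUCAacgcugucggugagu
mmu-miR-181b-5p: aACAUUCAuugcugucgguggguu
mmu-miR-29b-3p: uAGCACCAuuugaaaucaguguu
mmu-miR-29c-3p: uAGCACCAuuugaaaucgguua
mmu-miR-16-5p: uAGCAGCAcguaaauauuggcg
mmu-miR-15a-5p: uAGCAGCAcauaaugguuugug
These windows lie at the hairpin's 5′ end, not at a promoter of the primary transcript.

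Promoters of divergent protein-coding pairs were CpG-rich and TATA-poor, as were those of other paired classes and, to a lesser degree, of accessible single genes. The median was 25 CpGs in 300 bases over 914 such promoters and 24 both for overlapping heads and for protein-coding genes paired with an lncRNA. It was 20 over 5912 single protein-coding promoters with a level of at least 1.3, 12 over all 11471 single protein-coding promoters and 7 over all 32851 promoters of the table. In the same order of 6 classes the TATA letters TATAAA stood in 4.70%, 6.53%, 3.47%, 7.41%, 15.3% and 13.6%. The ETS motif, CCGGAAG, stood in 29.8%, 26.6%, 22.8%, 15.8%, 10.1% and 8.86%. The NRF1 core CGCATGCG stood in 6.02%, 3.02%, 4.95%, 3.99%, 2.44% and 1.87%. The 3 paired classes all exceeded the accessible single promoters in ETS letters, but overlapping heads did not in the NRF1 core. The YY1 letters AAGATGGCG stood in 5.14%, 1.005%, 2.48%, 2.81%, 1.60% and 1.40%. The SP letters GGGCGG were found in 67.1%, 63.3%, 71.3%, 65.2%, 44.7% and 35.7%. The CRE palindrome TGACGTCA stood in 4.49%, 2.51%, 4.95%, 3.16%, 2.16% and 1.79%. The NFY pentamer CCAAT stood in 43.4%, 28.6%, 39.6%, 40.8%, 38.9% and 37.4%. Promoters of a pair overlap, so a motif between close TSSs is counted in both. No motif contains another, though their ends can overlap.

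Among these motifs the NFY pentamer had the widest gap in level between divergent promoters with and without it. Windows with it had a median of 1.87 and those without it 1.59, whereas the ETS motif had 1.61 with and 1.74 without. By number of pentamers the medians were 1.59 with 0 (517 promoters), 1.79 with 1 (209), 1.80 with 2 (99) and 2.04 with 3 or more (89). The gap between 3 or more and 0 was positive in 8 of 8 columns, from 0.273 to 0.524 read multiples. Single protein-coding windows had medians of 1.31, 1.301, 1.43 and 1.80 over the same classes. TSS distance moved along with the number of pentamers, as 70.7% of promoters with TSSs under 100 bp apart and 48.9% of those 200 bp or more apart had 0. Under 100 bp the medians were 1.52, 1.56, 1.64 and 1.75 (5 promoters in the last class). From 100 to under 200 bp they were 1.71, 1.87, 1.79 and 1.95, and at 200 bp or more 1.77, 1.94, 2.09 and 2.15. Kbtbd3 and Aasdhppt, with no pentamer and a level of 4.93, show how far single pairs lie from these medians. A letter match is not a binding site, and its part in the level was not tested.

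**Figure D4:**
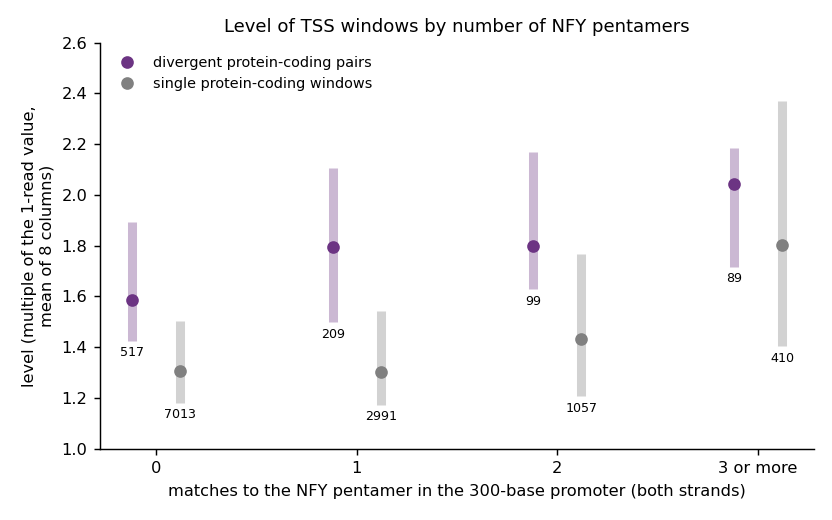
Median level (points) and quartiles (bars) of divergent protein-coding (purple) and single protein-coding (grey) windows by the number of NFY pentamers in the 300-base promoter; small numbers count promoters. Divergent windows go from a median of 1.59 with 0 pentamers to 2.04 with 3 or more, and single windows from 1.31 to 1.80.

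FOXD3 depletion changed no paired window past the threshold. Windows with a read in every column and a level of at least 1.3 were tested (3664 members, 15323 windows in all). Signals were taken as log2(signal + 0.1), centred, and fitted in limma with terms for treatment and fraction, and p-values were adjusted over all tested windows. For this contrast the fractions stood in for repeats, so a p-value reflects how far pooled columns scatter and not how cultures do. No member was called for 4HT against EtOH at adjusted p under 0.05, and 0.0131% of all tested windows were. An unadjusted p under 0.05 was reached by 221 members (6.03%), against 5.28% of all tested windows. The smallest adjusted p of a member was 0.438, at a pair with no annotated TSS. The median log2 difference over the members was -5.5e-05, with 5th and 95th percentiles of -0.16 and 0.16. Within G1, ES, LS and G2 the member medians lay between -0.0052 and -0.00066 on the log2 scale. Those of all tested windows lay between 1.6e-06 and 0.0010. Centring pulls the columns together, so medians near 0 are largely set by it, and a shift common to all windows could not show in them. Divergent pairs of protein-coding genes gave 58 of 992 windows at unadjusted p under 0.05 and no call.

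The annotated member with the smallest p in the direction of higher signal in 4HT was Rad51c, a recombination gene, together with its partner Tex14, a gene of germ cell bridges. Rad51c had signals of 0.222, 0.140, 0.162 and 0.185 in 4HT and of 0.121, 0.133, 0.129 and 0.108 in EtOH (G1, ES, LS, G2). Each 4HT column lay above each EtOH column, though all values were 1.05 to 1.80 times the 1-read value. The log2 difference was 0.28 ± 0.08 (SE), with an adjusted p of 0.506 in limma. Its 1 accessible region, at chr11:87404129-87405153, had signals of 0.286, 0.218, 0.283 and 0.244 in 4HT and of 0.167, 0.137, 0.130 and 0.107 in EtOH. It was too weak for the test of regions. Pibf1, with Dis3, a ribonuclease of the RNA exosome, had a log2 difference of 0.35 ± 0.10 (SE; adjusted p 0.582 in limma).

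In the other direction the smallest p among members with a named gene in the pair belonged to the unannotated partner of Rad52, another recombination gene, with a log2 difference of -0.28 ± 0.09 (SE; adjusted p 0.723 in limma). Ndufa4, a respiratory chain subunit, and its partner Phf14 came next. Ndufa4 had signals of 0.187, 0.156, 0.147 and 0.221 in 4HT and of 0.179, 0.227, 0.339 and 0.257 in EtOH. The arms overlapped, with G1 alike and LS farthest apart. The log2 difference was -0.33 ± 0.10 (SE; adjusted p 0.771 in limma). The lowest value of any member, -0.39, stood at a window of a pair with no annotated TSS.

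No accessible region inside the pairs passed the threshold either. Those regions were 3092 of 124444 autosomal regions (2.48%) and had a median level of 2.11, against 1.62 for all. A read in every column was found in 71.5% of them and in 30.7% of all. Of the 1206 tested (level of at least 2), none was called for 4HT against EtOH, and 0% of all 11010 tested regions were. An unadjusted p under 0.05 was reached by 41 (3.40%), against 5.42% of all tested regions.

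Between cell cycle fractions, LS against G1 was the contrast with calls among the members, 4 windows in 3 pairs. Here the 2 treatments served as repeats. The higher call was 1 member, with 0.0196% of all tested windows called higher, and the lower calls were 3 members, with 0.0522% of all called lower. An unadjusted p under 0.05 was reached by 245 members (6.69%), against 6.9% of all tested windows.

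Both windows of a pair at chr4:147518518-147523881 fell in LS. They hold no annotated TSS and overlap the vomeronasal receptor pseudogene Vmn2r-ps20. The left window had signals of 0.193 in 4HT LS and 0.189 in EtOH LS, against 0.463 in 4HT G1 and 0.353 in EtOH G1. Both LS columns were the lowest of their arm. The log2 differences were -0.80 ± 0.15 and -0.79 ± 0.15 (SE), with adjusted p of 0.00874 and 0.0104 in limma. G2 was lower too, at -0.55, without passing the threshold (adjusted p 0.430). The accessible region inside the pair had -0.86 for LS against G1 and was not called (adjusted p 0.580 in limma). In EtOH its signal was 0.314 in LS and 0.296 in G2.

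Dph6, an enzyme of diphthamide synthesis, fell in LS by 0.64 ± 0.13 on the log2 scale (SE; adjusted p 0.0148 in limma). It had signals of 0.334, 0.135, 0.124 and 0.152 in 4HT and of 0.233, 0.182, 0.143 and 0.148 in EtOH (G1, ES, LS, G2). G1 was highest in both arms and the other fractions overlapped. The unannotated partner had -0.60 and missed the threshold (adjusted p 0.0716). For ES and G2 against G1 Dph6 had -0.50 and -0.52, with adjusted p of 0.272 and 0.228. The accessible region of the pair had -1.05 for LS against G1 and was not called (adjusted p 0.530 in limma).

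The unannotated partner of Soga3, at chr10:29141845-29146844, rose in LS by 0.57 ± 0.12 on the log2 scale (SE; adjusted p 0.0386 in limma), and Soga3 itself had 0.50 (adjusted p 0.0895). The partner had signals of 0.170 in 4HT LS and 0.319 in EtOH LS, against 0.168 in 4HT G1 and 0.112 in EtOH G1. As multiples of the 1-read value these were 1.89 and 2.61 in LS, against 1.14 and 1.12 in G1. The difference after centring was 0.30 in 4HT and 0.85 in EtOH, and whether the arms differ could not be tested. Without centring none of the 4 calls held (adjusted p 0.455 to 0.9997), nor without the minimum on level (0.0683 to 0.279). The log2 differences stayed close, at -0.80, -0.78, -0.70 and 0.50 without centring and at -0.81, -0.80, -0.65 and 0.57 without the minimum (left and right window at Vmn2r-ps20, Dph6, Soga3 partner). The Soga3 partner also missed the threshold with a pseudocount of 0.5 or 1 (0.0509 and 0.0680) and without ES or without G2 (0.104 and 0.174), and Dph6 without G2 (0.0596).

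**Figure D5:**
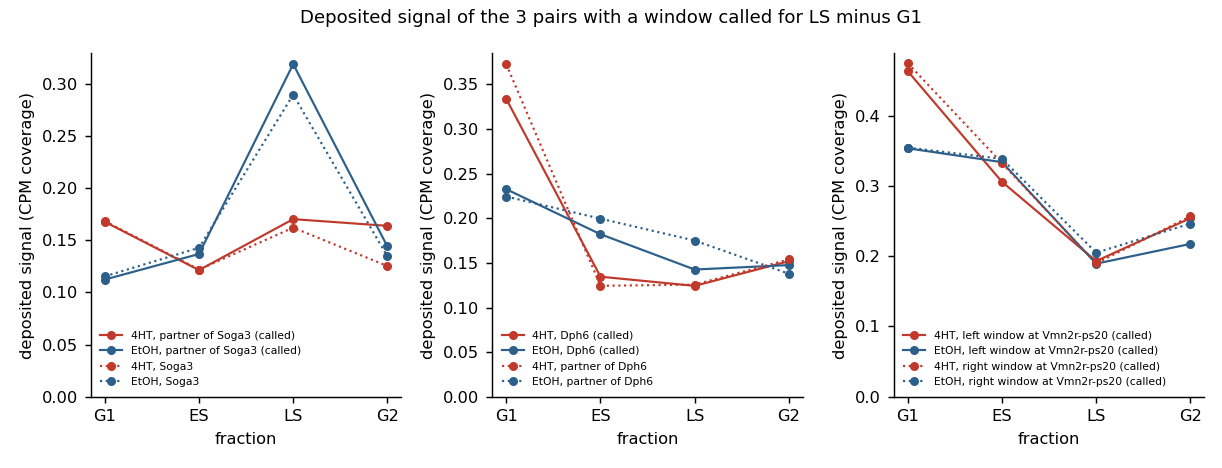
Deposited signal in G1, ES, LS and G2 for both windows of the 3 pairs with a call for LS against G1 (solid: first called window, dotted: its partner; red 4HT, blue EtOH; axes start at 0). Partners run together, Dph6 and the pair at Vmn2r-ps20 are highest in G1 in both arms, and the Soga3 partner is highest in LS in EtOH (0.319) and close in signal between LS and G1 in 4HT (0.170 and 0.168, which are 1.89 and 1.14 times the 1-read value).

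ES against G1 called no member, and 0.0196% of all tested windows. An unadjusted p under 0.05 was reached by 268 members (7.31%), against 6.78% of all (limma). Tle1, a Groucho corepressor, and its divergent lncRNA partner C630043F03Rik had the smallest p. Tle1 had signals of 0.154 in 4HT ES and 0.189 in EtOH ES, against 0.392 in 4HT G1 and 0.305 in EtOH G1. The log2 difference was -0.64 ± 0.15 (SE; adjusted p 0.114), and ES was the lowest fraction of both arms. In the other direction the unannotated partner of Ap1m1, a clathrin adaptor subunit, had 0.54 (adjusted p 0.346), and Xab2 with Pet100, a splicing and repair factor beside a cytochrome oxidase assembly factor, had 0.49 and 0.47 (adjusted p 0.460 and 0.473).

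G2 against G1 called no member either, and 0.0457% of all tested windows. An unadjusted p under 0.05 was reached by 188 members (5.13%), against 5.64% of all (limma). Atp6v1a, a proton pump subunit, and its divergent partner Naa50, an N-terminal acetyltransferase, had 0.51 each (adjusted p 0.430 and 0.436). Atp6v1a had signals of 0.278 in 4HT G2 and 0.285 in EtOH G2, against 0.192 in 4HT G1 and 0.163 in EtOH G1, and G2 had the highest signal of both arms. As a multiple of the 1-read value 4HT in LS (2.498) was slightly above 4HT in G2 (2.46). The partner of Tent5c, a poly(A) polymerase, had 0.39 (adjusted p 0.626). The partner of Dph6 had -0.59 (adjusted p 0.128) and Aste1, with the kinase gene Nek11, -0.47 (adjusted p 0.436).

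In LS against G1 the smallest p among windows with higher signal and no call, besides Soga3, belonged to the histone pseudogene H2bu1-ps with H2aw, and to the partner of Cdca2. H2bu1-ps had 0.41 (adjusted p 0.395). The Cdca2 partner had signals of 0.969 in 4HT LS and 0.901 in EtOH LS, against 0.557 in 4HT G1 and 0.507 in EtOH G1. LS was the highest fraction of both arms, and the log2 difference was 0.64 ± 0.18 (SE; adjusted p 0.336 in limma). No window of the gene family lists was called in any of the 4 contrasts. For 4HT against EtOH, where 5.28% of all tested windows had an unadjusted p under 0.05, so did 4 of 27 tested repair members, 3 of 30 histone, 3 of 14 complex I, 1 of 28 mitochondrial ribosomal, 2 of 23 cytosolic ribosomal, 0 of 13 RNA polymerase, 0 of 9 proteasome, 2 of 48 Zfp, 0 of 1 Fanconi, 1 of 4 MCM and GINS and 2 of 51 miRNA members. For LS against G1, with 6.9% of all tested windows, the counts in the same order were 3, 5, 0, 1, 2, 1, 0, 3, 0, 0 and 3.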

How the data were processed

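The deposited signal of TSS windows and of accessible regions was used, with 8 columns each, 1 for each of 8 groups. No column carried a replicate number, so the 2 libraries of each of the 8 groups were taken as pooled by the authors. The submitters' processing notes list mm10 as the build, and featureCounts and DESeq2 as tools with no role; aligner and peak caller are not given in the sources used here. The implied depth was 6781000 to 11176000 reads a column, and counting error alone limits values near 1 read.

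Of 38087 table rows 34 were duplicates and counted once. TSSs were taken from RefSeq tables of GRCm38.p6 (promoter and gene tables) and assigned to the nearest window reference point within 500 bp; 3366 members received a symbol. For 6456 genes the strand was inferred from an end within 5 bp of a reference point, and 22 of 27025 genes of known strand would match at the wrong end. Both windows nearest to 1 gene were given a second gene in 47 pairs. Sequences were not used for chromosome 18, which holds 96 members.

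Tests used limma 3.58.1 (R 4.3.3) on log2(signal + 0.1), with cyclic loess centring, an intensity trend, robust moderation, 3 residual degrees of freedom and Benjamini-Hochberg adjustment over all 15323 tested windows or 11010 regions. The log2 scale with a pseudocount understates folds of low windows. The fit was tested on simulated data of 15323 windows. Each simulated window had the same normal noise, set by the median residual variance of the uncentred data. Real windows differ in their spread, so the rates below hold for the simulated setting only. For 4HT against EtOH it recovered 63% of changes of 0.5 and 81% of changes of 1 on the log2 scale, with 17 false calls. For ES, LS and G2 against G1 it recovered 33%, 27% and 23% of changes of 0.5, and 99%, 99% and 100% of changes of 1, with 12, 5 and 6 false calls. Members, lists and tests were chosen with earlier results of these data known; the DNA repair and miRNA lists were added last, and a second count without symbols that only share a prefix was made after the lists were seen. Named members were those called, otherwise the 3 with the smallest p in each direction, the 10 pairs with the highest level, the classical pairs (1 of which is not reported here) and the 3 with the largest partner difference; predicted symbols were passed over. Alternatives changed the pseudocount, the minimum level, the centring, the fractions used and the definition of a pair. Tables and figures were made with Python 3.11.15, pandas 2.3.3 and matplotlib 3.10.9.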

Additional observations from a re-analysis of the deposited data

How the results depend on the processing

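The median level of the members, 1.52, lay between 1.51 and 1.54 with starts within 500 bp, mutual pairs only, 1 window per pair, or missing values taken as 0. That of divergent protein-coding windows, 1.72, was 1.67 for the 413 pairs with both TSSs within 50 bp of their reference points and 1.74 without the G1 columns, both alternatives added after seeing the data. The count of called members stayed at 0 under each alternative run for 4HT against EtOH, ES against G1 and G2 against G1. For LS against G1 it was 4, but 0 without a level minimum, 2 at a level of at least 2, 0 without centring, and 2 to 3 with a fraction left out. It was 3 with a pseudocount of 0.5 and 4 with a pseudocount of 1, and the 1 higher call was lost under both.

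Over all tested windows, 4HT against EtOH called 2, but 1 with a pseudocount of 1, 0 without a level minimum, 1 at a level of at least 2, 0 without centring, and 0 to 4 with a fraction left out. ES against G1 called 3, but 1 without a level minimum, 1 at a level of at least 2 and 0 without centring, and 2 to 3 with a fraction left out. LS against G1 called 11, but 4 without a level minimum, 4 at a level of at least 2, 0 without centring, and 7 to 10 with a fraction left out. G2 against G1 called 7, but 4 without centring, and 7 with either fraction left out. The cause was not tested. With centring left out, the 4HT minus EtOH median was 0.018 for members and 0.022 for all windows, and those of ES, LS and G2 against G1 were -0.07, -0.05 and -0.07 for members and -0.06, -0.06 and -0.09 for all. No paired analysis was possible because the columns carry no replicate numbers.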
